A study of Sus scrofa with 16 samples.

Results

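A total of 5744 accessible chromatin regions (ACRs) were called in pig liver at 28 days (suckling) and again at 180 days (adult), while no peak overlapped them in newborn liver or in newborn heart, kidney, lung, skeletal muscle or spleen. They were taken from the 135635 peaks of the suckling liver list on chromosomes 1 to 18, of which they made up 4.23% (Wilson 95% interval 4.13 to 4.34, counting error only), and from 798988 peaks in all 8 lists of the study. The regions were chosen by the peak calls themselves, as those sharing at least 1 bp with an adult liver peak and none with any of the 6 newborn lists, so their presence, their strength at both later ages and their absence at birth are a description and not findings. "Liver-only" holds against the newborn tissues alone, because the other 5 tissues were profiled only at birth.

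ATAC-seq, in which a transposase cuts accessible DNA and inserts sequencing adaptors, was performed in 16 libraries, 2 for each of 8 groups: liver at 0, 28 and 180 days, and heart, kidney, lung, muscle and spleen at 0 days. All animals were untreated female domestic crossbred pigs, described in the study's methods as Berkshire × Tibetan hybrid full sibs, with 2 animals per age and all newborn tissues taken from the same 2 newborn pigs. Age and animal therefore cannot be told apart, and the frozen tissue holds all cell types of the organ, so a change in cell makeup and a change within cells cannot be told apart either.

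The 8 lists held 57126 to 141689 peaks, each found in both replicates. The lists give no read counts, and a region missing from a list was not called there, which does not make it closed. The newborn liver list, which decides what was left out, was uneven between its replicates, with a median −log10 p of 24.8 in replicate 1 and 8.66 in replicate 2. The irreproducible discovery rate (IDR) is the estimated share of peaks not shared by the replicates, among those ranked at least as high. Only 19.1% of the newborn liver peaks had an IDR of 0.05 or lower, against 33.7% in suckling and 50.3% in adult liver. With only peaks at that limit kept in every list, the same rule gave 7521 regions, and with it in the suckling and adult lists alone 516.

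Hepatocytes take on most of their adult work after birth, as the diet moves from placental nutrients to milk and then to solid feed and the liver stops making blood cells. Enhancers and promoters that drive these programs bind liver factors of the HNF4, FOXA, C/EBP and HNF1 families together with widely expressed factors such as nuclear factor I (NFI), and bound DNA is cut readily in ATAC-seq. Enzymes of drug and steroid oxidation, amino acid breakdown and glucose storage, and plasma proteins of clotting and complement, are classic products of the maturing liver.

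The suckling summit and 100 bases to either side of it (Sscrofa11.1, plus strand, RefSeq sequence) are given for 9 regions that the results below turn on: the IGF2 promoter region, the strong NPAS2 region, the strongest regions at CYP3A22 and GHR, and the strongest regions outside promoters that carry an NFI, RUNX, NF-κB, C/EBP or FOXA match. Capitals mark matches on either strand to NFI (CTTGGCA), RUNX (TGTGGTT), NF-κB (GGGANTTCC), C/EBP (TTGCNNAA), FOXA (TGTTTAC), the motif of GATA factors (AGATAA), HNF4 (CAAAGTCCA), the nuclear receptor direct repeat DR1 (GGTCANAGG) and AP-1 (TGANTCA).
IGF2 promoter (chr2:1496325-1496525): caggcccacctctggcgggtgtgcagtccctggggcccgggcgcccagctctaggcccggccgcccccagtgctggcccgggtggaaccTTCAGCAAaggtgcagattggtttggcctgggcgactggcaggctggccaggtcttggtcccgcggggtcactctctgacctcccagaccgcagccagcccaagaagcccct
NPAS2 intron (chr3:53442118-53442318): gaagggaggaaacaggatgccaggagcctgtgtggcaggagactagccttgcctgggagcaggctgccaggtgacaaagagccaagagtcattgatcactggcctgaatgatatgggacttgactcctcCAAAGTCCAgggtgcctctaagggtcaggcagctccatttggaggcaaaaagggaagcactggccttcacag
CYP3A22, upstream (chr3:6609241-6609441): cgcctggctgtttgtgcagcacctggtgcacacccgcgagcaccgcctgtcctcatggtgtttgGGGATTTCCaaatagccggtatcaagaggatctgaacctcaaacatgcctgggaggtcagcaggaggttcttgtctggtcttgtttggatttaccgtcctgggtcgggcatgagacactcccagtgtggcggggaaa
CYP3A22 intron (chr3:6623588-6623788): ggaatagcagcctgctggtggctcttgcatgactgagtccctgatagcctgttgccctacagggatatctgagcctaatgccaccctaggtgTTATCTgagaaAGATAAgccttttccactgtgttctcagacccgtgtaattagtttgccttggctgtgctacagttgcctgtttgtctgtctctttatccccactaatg
GHR intron (chr16:27370227-27370427): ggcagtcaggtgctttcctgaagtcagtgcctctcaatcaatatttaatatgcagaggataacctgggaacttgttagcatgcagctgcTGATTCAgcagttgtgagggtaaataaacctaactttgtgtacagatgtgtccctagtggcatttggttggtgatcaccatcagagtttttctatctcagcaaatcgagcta
PWP1, intergenic (chr5:12696432-12696632): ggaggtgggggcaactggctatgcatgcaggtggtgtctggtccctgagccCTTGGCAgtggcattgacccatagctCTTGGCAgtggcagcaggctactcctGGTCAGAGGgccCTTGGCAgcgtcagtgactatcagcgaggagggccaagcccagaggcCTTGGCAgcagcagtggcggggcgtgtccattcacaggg
MTHFD1L intron (chr1:15364799-15364999): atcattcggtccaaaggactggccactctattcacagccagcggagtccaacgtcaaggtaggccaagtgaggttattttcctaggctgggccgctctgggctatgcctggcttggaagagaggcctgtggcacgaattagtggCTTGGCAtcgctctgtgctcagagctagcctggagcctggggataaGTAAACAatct
NMRAL1, intergenic (chr3:37880226-37880426): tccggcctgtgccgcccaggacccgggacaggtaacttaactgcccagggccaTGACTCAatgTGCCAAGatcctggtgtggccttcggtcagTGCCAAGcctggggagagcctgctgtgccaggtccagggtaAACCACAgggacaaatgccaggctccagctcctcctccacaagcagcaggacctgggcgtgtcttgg
DCLK1, intergenic (chr11:11787832-11788032): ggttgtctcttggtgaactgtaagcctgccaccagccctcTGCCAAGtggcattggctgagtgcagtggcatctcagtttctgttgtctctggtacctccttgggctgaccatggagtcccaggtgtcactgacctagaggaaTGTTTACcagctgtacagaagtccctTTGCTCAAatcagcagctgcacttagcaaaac

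The region near PWP1 held 4 NFI matches and a DR1 match within the window. The region near NMRAL1 held 2 NFI matches beside a RUNX and an AP-1 match, that near DCLK1 combined NFI, FOXA and C/EBP, and that in MTHFD1L combined NFI and FOXA. The intronic CYP3A22 region carried a pair of inverted GATA matches on either side of its summit, and the upstream one an NF-κB match. A match is a string of letters in the reference and does not show that a factor was bound.

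The regions were mostly weak in the suckling list and of ordinary strength in the adult list. In suckling liver, the −log10 p of a region had a lowest value of 2.87, a median of 6.22 and a highest value of 499 in replicate 1, and of 2.86, 8.23 and 963 in replicate 2, where all suckling peaks had medians of 7.78 and 11. In adult liver the lowest, median and highest values were 3.11, 18.4 and 3016 in replicate 1 and 3.03, 23.7 and 2146 in replicate 2, close to the medians of the whole adult list (18.4 and 26.1). Since −log10 p rises with sequencing depth, strengths were ranked within a list and not compared between ages. A region lay at a median percentile of 40.4 in the suckling list (quartiles 21.9 and 56.7) and 48.6 in the adult list (quartiles 23.1 and 70.6), and 1224 regions (21.3%) lay in the upper part of both lists, at the 50th percentile or higher.

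**Figure D1:**
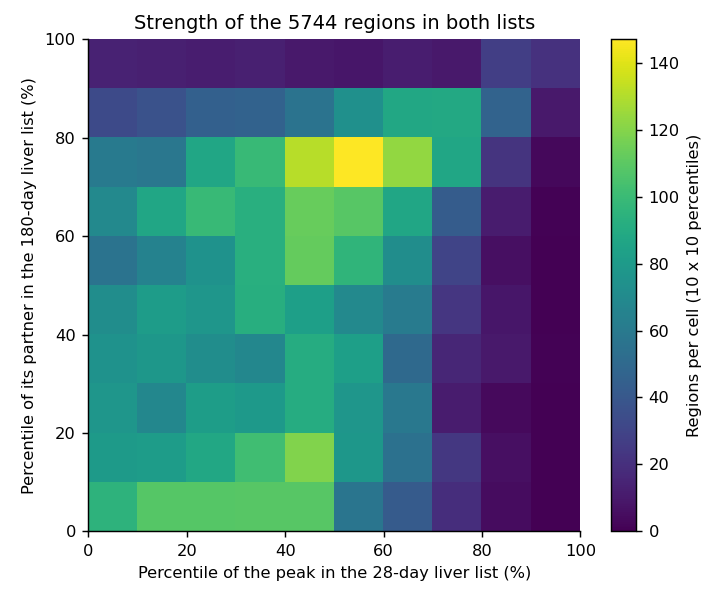
Percentile rank of each of the 5744 regions among all peaks of the 28-day liver list (horizontal axis, %) and of its overlapping peak in the 180-day liver list (vertical axis, %), with colour giving the number of regions per 10 by 10 cell. The fullest cell, at percentiles 50 to 60 and 70 to 80, holds 147 regions, and 21 regions reach the 90th percentile in both lists.

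At an IDR of 0.05 or lower, 725 regions (12.6%) passed in suckling liver, 2721 (47.4%) in adult liver, 516 (8.98%) in both and 2814 (49%) in neither. The overlap that the rule asked for was mostly wide. Summits of the suckling and adult peaks lay a median of 32 bp apart (quartiles 13 and 77 bp), 3710 regions (64.6%) had summits within 50 bp, 4598 (80%) within 100 bp, and 5368 (93.5%) had at least 50% of their length under the adult peak. The median width was 256 bp in suckling liver, against 365 bp for all suckling peaks. A newborn peak of any list lay within 1000 bp of 2069 regions (36%), and 225 (3.92%) had one within 100 bp. For 390 regions (6.79%) the wider adult peak did reach a newborn liver peak, as at IGF2 below. Close to the limits of the rule, 11 regions shared 10 bp or less with the adult peak, 9 lay 10 bp or less from a newborn peak, and 24 peaks were left out because of an overlap of 10 bp or less.

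The strongest regions of the set were distant from promoters. Rank was set by the lower of a region's 2 percentiles. First came a 132 bp region on chromosome 3 (chr3:44071632-44071763), 49.1 kb from the start site of TTL, a tubulin tyrosine ligase, with −log10 p of 499 and 963 in suckling and 3016 and 2146 in adult replicates, the highest values of the set in all 4 libraries. The second (chr15:119473333-119473958) lay 436 kb from TNP1 with 94.4 and 108 in suckling and 384 and 314 in adult liver. The fourth was a narrow region (chr2:93844702-93844802), 501 kb from COX7C, with 54.2, 93.6, 345 and 207 in the same order of libraries. A newborn peak lay 168 bp from this region, where the set had a median gap of 1665 bp. The regions near TTL and COX7C were narrower than the 186 bp that marks the lower quartile of widths.

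The region that ranked 3 lay in an intron of NPAS2, a circadian transcription factor that pairs with BMAL1, 22.9 kb from its start site (chr3:53441784-53442494). Its −log10 p was 60.4 and 56.8 in suckling and 210 and 248 in adult replicates, its IDR was 0.00081 and 0.00026, and its sequence holds an HNF4 match. Next came regions 34.4 kb from PWP1 (53.8, 105, 198 and 219), in an intron of MTHFD1L, a mitochondrial enzyme of one-carbon metabolism (48, 68.3, 286 and 188), in an intron of RASGEF1B (adult values of 183 and 242) and in an exon 24.3 kb from the nearest start site, that of RTL10 (42.3, 62.8, 275 and 207). In each region of this paragraph both replicates of both ages lay far above the medians of their lists.

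**Figure D2:**
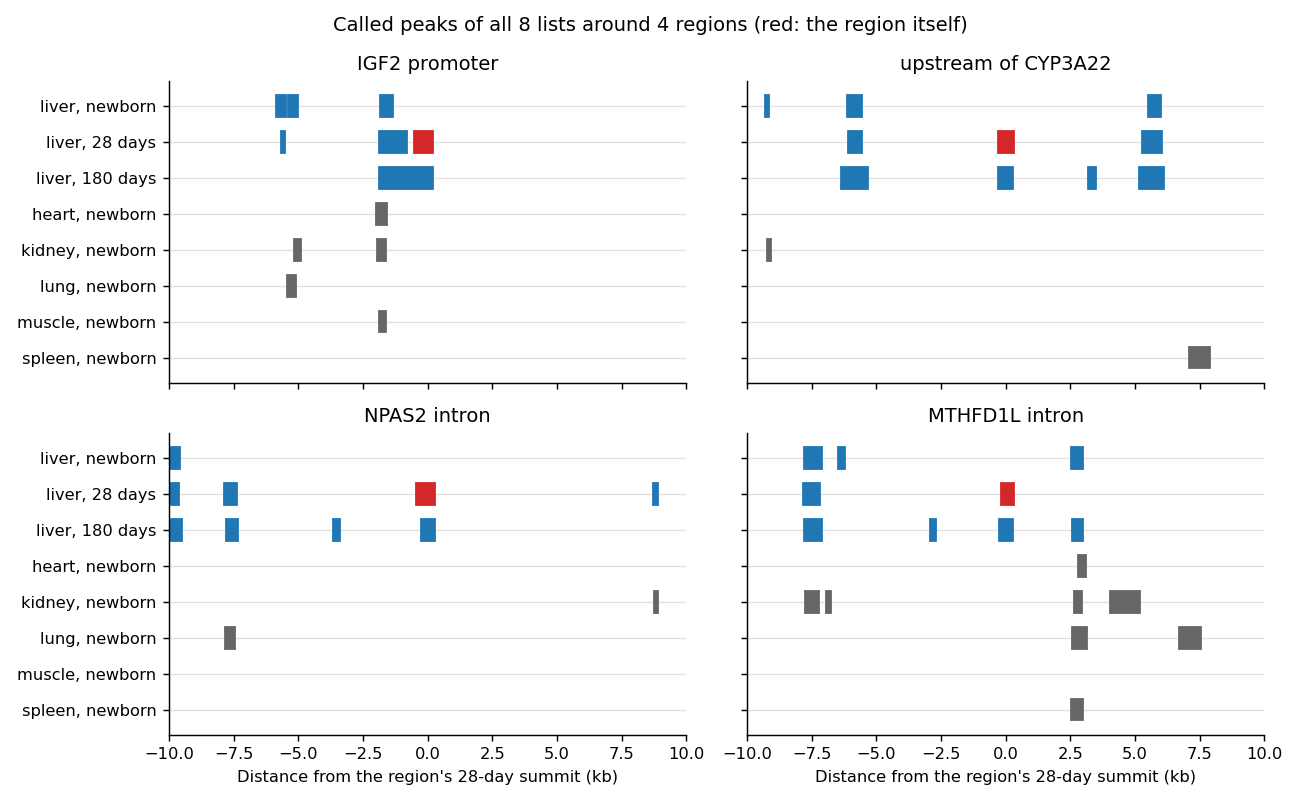
Called peaks of all 8 lists (rows) within 10 kb of the summit of 4 regions (red), against the distance from that summit in kb, with other liver peaks in blue and peaks of other newborn tissues in grey. In each panel the 28-day and 180-day liver rows have a peak at 0 kb and the 6 newborn rows have none. The single 180-day peak at IGF2 extends to peaks of newborn liver, heart, kidney and muscle on its left.

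Of the 5744 regions, 287 (5%) lay in a promoter, defined as 2.2 kb upstream to 500 bp downstream of a start site of a protein-coding gene, and these touched 284 of 18725 protein-coding genes (1.52%). The strongest of them lay at the upstream start sites of IGF2, the fetal insulin-like growth factor, 8 bp from the nearest annotated one (chr2:1495892-1496619). Its −log10 p was 33.5 and 34.4 in suckling and 100 and 98 in adult replicates, and the replicates of each age nearly coincided. IGF2 has 15 annotated start positions that fall in groups. The 5 within 278 bp of the region's summit were covered by a suckling and an adult peak and by no newborn peak of any tissue. The 4 positions about 15.7 to 16 kb away were covered only in newborn muscle, and 1 position 19.4 kb away in newborn kidney and spleen. Newborn liver had its nearest peak 799 bp from the region, with −log10 p of 6.38 and 9.14, and the adult peak, 2094 bp wide, overlapped it. The adult peak also overlapped peaks of newborn heart (5.11 and 10.4), kidney (10.1 and 11.1) and muscle (6.58 and 11.5).

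Promoters of plasma proteins formed the largest group of promoter regions among the lists, at 7 of 44 genes against the 1.52% of all genes. At ALB, which encodes serum albumin, a region 15 bp from a start site (chr8:69643150-69643594) reached 18 and 8.87 in suckling and 131 and 56.2 in adult replicates, with the nearest newborn liver peak 1862 bp away, and its sequence holds an HNF1 match. At FGB, the fibrinogen beta chain, the region lay 14 bp from a start site with 7.98, 12.7, 103 and 82, and at F10, coagulation factor X, 1.29 kb from it with 21.1, 22.7, 165 and 79.3. PROC (protein C, an anticoagulant) had 8.51, 9.52, 74.8 and 58, C5 (complement) 5.22, 7.37, 49.2 and 40, AHSG (fetuin-A) 4.69, 5.56, 77.8 and 95.2, and CRP (an acute-phase protein) 8.16, 11.7, 27.9 and 36.2. Of these 7 suckling peaks, only that of F10 had an IDR of 0.05 or lower, while all 7 adult peaks did.

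Further promoter regions lay at enzymes and transporters. LIPC, the hepatic lipase, had a region 94 bp from a start site with −log10 p of 6.87 and 7.28 in suckling and 110 and 103 in adult replicates, and its adult peak also reached a newborn liver peak. CYP1A2, an oxidase of caffeine and other aromatic compounds, held 2 promoter regions, the stronger at 337 bp with 5.41, 13.2, 64.1 and 20.9. ADH4, an alcohol dehydrogenase that also oxidizes retinol, had 5.63, 14.6, 64.8 and 5.65, and SLCO1A2, an organic anion transporter, 6.5, 15.3, 118 and 6.26, so that in both genes the adult value rested on replicate 1. Among unlisted genes, SLC16A5, a monocarboxylate transporter, had a promoter region 50 bp from a start site with 21.9, 21.4, 196 and 132. LOC102166944, annotated as metallothionein-1E-like (metallothioneins bind zinc and copper), had one at 223 bp with 29.6, 37.3, 243 and 84.6, and further strong promoter regions lay at RELT and KRT3.

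In all, 2648 of 18725 protein-coding genes (14.1%) held a region in the gene body or promoter, and 255 (1.36%) held 3 or more. This share grew with gene length, from 2.92% of genes under 10 kb to 39% of genes over 100 kb. Across 17 gene lists written for liver functions and for other cell types of the organ, 468 of 499 entries were matched to an annotated gene. The lists were written with earlier results of these data known, their counts were not tested, and genes of a list differ in length, so each count is given beside the 14.1% as a description.

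The lists of hepatocyte function lay above that share. Of 38 genes of glucose and amino acid metabolism 19 (50%) held a region, as did 18 of 44 genes of plasma proteins and complement (40.9%), 13 of 34 genes of drug and bile acid conjugation and transport (38.2%), 9 of 24 P450 enzymes (37.5%), 17 of 45 hepatic transcription factors and nuclear receptors (37.8%), 9 of 19 clock genes (47.4%), 7 of 19 genes of the growth hormone and IGF axis (36.8%), 6 of 22 genes of nutrient, iron and retinol handling (27.3%) and 12 of 46 genes of lipid and cholesterol metabolism (26.1%). Per Mb of gene, P450 genes held 27.8 regions, plasma protein genes 27.3 and glucose and amino acid genes 17.6, against 3.5 over all genes. Most of these counts rested on weakly supported peaks. With an IDR of 0.05 or lower in both later lists, each of these lists kept only 1 to 3 genes. Plasma proteins kept 1 of 44 (2.27%), P450 enzymes 1 of 24 (4.17%) and clock genes 3 of 19 (15.8%), against 1.63% of all genes.

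**Figure D3:**
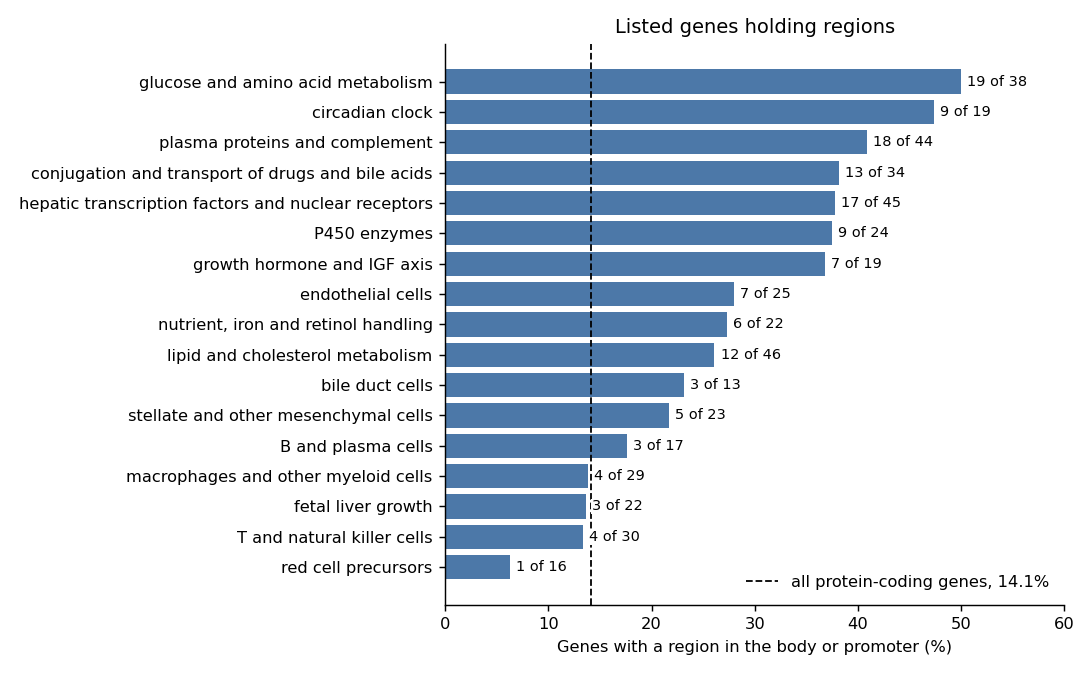
Share of the genes of each list that hold a region in the gene body or promoter (bars, %, with counts), beside the 14.1% of all protein-coding genes (dashed line). Glucose and amino acid metabolism is at 50%. The lists of T and natural killer cells (13.3%), myeloid cells (13.8%) and fetal liver growth (13.6%) lie close to the line, and red cell precursors (6.25%) lie under it.

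Of the lists of other cell types, that of endothelial cells lay above the lists of nutrient handling and of lipid metabolism, and the rest lay below them. Beside the 14.1% of all genes, the T and natural killer cell and myeloid lists lay close to that share. Red cell precursors lay below it, and the other cell type lists lay above it. T and natural killer cells had 4 of 30 genes (13.3%), macrophages and other myeloid cells 4 of 29 (13.8%), B and plasma cells 3 of 17 (17.6%), stellate and other mesenchymal cells 5 of 23 (21.7%), bile duct cells 3 of 13 (23.1%), endothelial cells 7 of 25 (28%) and red cell precursors 1 of 16 (6.25%). The endothelial genes were CDH5, FCGR2B, STAB2, TEK, OIT3, TIE1 and MAF, of which STAB2, OIT3, MAF and FCGR2B are known from the endothelium of liver sinusoids. Fetal liver growth, with IGF2, CDK1 and PKM, had 3 of 22 genes (13.6%). Per Mb of gene, myeloid genes held 7.16 regions, endothelial 6.03, T and natural killer 5.96 and B cell genes 3.74. Bile duct (3.37), mesenchymal (2.4) and red cell genes (1.61) lay under the 3.5 of all genes. With equal numbers of strongest peaks, B (11.8%) and T cell lists (10%) lay above the 9.01% of all genes. Endothelial (8%), bile duct (7.69%), mesenchymal (4.35%), myeloid (3.45%) and red cell lists (0%) lay below it. The hepatocyte lists also stood above all genes for liver-only peaks called at all 3 ages, a class described below, where all genes had 25.1%, plasma proteins 86.4%, glucose and amino acid metabolism 78.9%, lipid metabolism 67.4%, P450 enzymes 58.3% and clock genes 42.1%. In that class endothelial cells (48%), B and plasma cells (41.2%) and bile duct cells (30.8%) also lay above all genes. Mesenchymal cells (21.7%), myeloid cells (20.7%), T and natural killer cells (20%) and red cell precursors (12.5%) lay below. For peaks called at 28 days only, all genes had 32.5%, plasma proteins 34.1%, glucose and amino acid metabolism 39.5%, lipid metabolism 37%, P450 enzymes 45.8% and clock genes 47.4%. Whether these shares differ between lists beyond gene length was not tested.

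Among the P450 genes, the CYP3A locus held the densest cluster. CYP3A enzymes oxidize steroids and many drugs. Within 59.4 kb of chromosome 3 (6609048 to 6668462), 7 regions lay in and around CYP3A22, and 5 more in 24.7 kb around CYP3A46. The strongest was upstream, 7.92 kb from the CYP3A22 start, and reached 40.4 and 35.3 in suckling and 263 and 186 in adult replicates. Newborn liver had peaks about 5.5 kb to either side of it with −log10 p of 106 and 19.1 and of 145 and 14.5, which also appeared at both later ages, but none over it. In the gene body, an intronic region 6.43 kb from the gene start had 16, 18.4, 19.6 and 46.4, and another 27.1 kb from it had 22.9, 6.88, 8.45 and 30.3, whereas the 3 regions 35.8 to 41.2 kb from the start stayed between 3.76 and 15.6 in all 4 libraries. CYP2C34 and CYP27A1, the latter a sterol hydroxylase of bile acid synthesis, held 3 regions each, CYP1A2 2, and CYP2C33, CYP2E1, CYP3A29, CYP3A46 and CYP4A21 1 each.

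Among genes of glucose and amino acid metabolism, GYS2, the liver glycogen synthase, and PPARGC1A, a coactivator of gluconeogenesis, held 5 regions each. The 4 intronic GYS2 regions were weak in suckling liver, with 3.13 to 8.9 over both replicates, while adult values ran from 4.67 to 100. AGXT2, a mitochondrial aminotransferase, held 4 regions and CPS1, the entry enzyme of the urea cycle, 3. Other steps of nitrogen and amino acid breakdown were represented by ARG1, ASS1, TAT, TDO2, HGD and FAH, and fructose and glycogen use by KHK, FBP1 and PYGL. The strongest of these was a PYGL intronic region with 30.9, 27, 53.4 and 83.8. KHK, fructokinase, had one 1.59 kb from a start site with 10.8, 12.9, 59.3 and 60.9.

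In the growth hormone axis, GHR, the growth hormone receptor, held 7 intronic regions over 296 kb. The 2 strongest had 18.5 and 24.3 in suckling and 59.1 and 59.9 in adult replicates (chr16:27370199-27370586) and 11.1, 14.9, 63.1 and 92.3, and both hold an AP-1 match. The other 5 had suckling values of 2.97 to 7.11. IGF1, a main target of growth hormone in liver, had an intronic region 858 bp from a start site with 8.58, 9.95, 73 and 98.3. IGF1R held 3 regions, and JAK2, which signals from the receptor, IGFBP4, BCL6 and CUX2 held 1 each.

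Among transcription factors, NFIA held 6 regions and NFIB 5, both members of the NFI family whose consensus is described below, and NFIC held 1. The strongest in NFIA (chr6:150943526-150943954) had 14, 31.2, 59.5 and 98.9. ESR1, the estrogen receptor, held 7 regions, with 10.9, 25.1, 76.4 and 94.4 in the strongest, and NR1H4, the bile acid receptor FXR, held 4. THRB, the thyroid hormone receptor of liver, had 2, HNF4A 2 and RXRA 1. The clock genes with regions included RORA with 3, CRY1 with 2, and CLOCK, ARNTL, CRY2, HLF, NFIL3 and NPAS2 with 1 each.

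Genes with the most regions were long. CAMK1D, a calcium-dependent kinase, held 11 regions in 431 kb, MAGI1 11 in 672 kb, NEBL 10 in 355 kb and MYO16 9 in 532 kb, and 5 genes held 8 (THADA, C8H4orf17, RIMBP2, AUTS2 and PSD3). The annotated span of C8H4orf17 contains ADH4, so its count includes the 3 regions of ADH4. The strongest region of these 5 genes lay in PSD3, with 74.9, 87.2, 107 and 136. Regions were spread over all autosomes, at 3.52% (chromosome 17) to 4.88% (chromosome 5) of the suckling peaks. Clusters of 5 or more regions, each within 20 kb of the next, were found at 10 loci. Besides the loci of CYP3A22 and CYP3A46 these included GYS2 and AGXT2 (6 each), LOC106510305, annotated as 17-beta-hydroxysteroid dehydrogenase type 6-like (6), the neighbouring RDH16 locus of retinol dehydrogenases (5), CAMK1D (5), and MT1A with its metallothionein neighbour (5).

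Position and sequence were not used to choose the regions, so they were compared with 2 classes of peaks of the same suckling list. The first, liver-only at all ages, held 14673 peaks that overlapped newborn and adult liver and no other newborn tissue. The second, suckling-only, held 20864 peaks that overlapped no other list, of which 0.954% reached an IDR of 0.05, against 43.3% of the first class and 12.6% of the regions. Differences were taken on each of 18 autosomes and tested with a two-sided sign-flip permutation test, with Benjamini-Hochberg adjustment over 5 positions, 4 sequence measures or 27 motifs. Autosomes are blocks of 1 genome and not animals, so the p-values describe the pooled lists and not the variation between pigs, and both comparisons share the 5744 regions.

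Most regions were intronic or intergenic, with 2930 (51%) in introns, 1987 (34.6%) between genes, 506 (8.81%) in exons and 34 (0.592%) just downstream of genes. Against liver-only peaks at all ages, the intronic share was higher by 2.64 percentage points (SD 3.67 over autosomes, 14 of 18 higher, permutation test, adjusted p = 0.0218) and the intergenic share lower by 2.54 points (SD 3.53, 3 of 18 higher, permutation test, adjusted p = 0.0218). The intronic difference passed 0.05 in 5 of 11 alternatives and the intergenic one in 6 of 11. The promoter shares, 5% against 5.1%, did not differ beyond their spread (−0.397 points, SD 1.68, permutation test, adjusted p = 0.415).

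Against suckling-only peaks, promoters were more frequent by 1.9 points (SD 1.81, 16 of 18 autosomes higher, permutation test, adjusted p = 0.0008) and intergenic positions less frequent by 5.16 points (SD 4.65, 2 of 18 higher, permutation test, adjusted p = 0.0012). The median distance from summit to the nearest start site was 23.7 kb, against 27.7 kb for liver-only peaks at all ages and 37.8 kb for suckling-only peaks. On the log10 scale the per-autosome difference was −0.0389 (SD 0.0571, permutation test, adjusted p = 0.0227) and −0.171 (SD 0.0713, permutation test, adjusted p = 4e-05). The promoter and intergenic differences from suckling-only peaks lost their direction when the suckling and adult peaks were limited to an IDR of 0.05 (−0.124 and 0.61 points). Regions whose adult peak missed the limit then counted as suckling-only. Of the 5744 regions, 725 passed in suckling liver and 516 at both ages, beside 199 peaks of the original suckling-only class. That comparator thus held part of the set itself, so the change cannot decide whether the differences hold.

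With all peaks kept, the base composition of the regions resembled that of liver-only peaks at all ages and not that of suckling-only peaks. Mean GC content in the window was 49.5% (SD 7.91 over regions), against 49.1% and 54.9%. The per-autosome difference was 0.326 points from the first (SD 0.521, 13 of 18 higher, permutation test, adjusted p = 0.0227) and −5.55 points from the second (SD 0.922, 0 of 18 higher, permutation test, adjusted p = 4e-05, from the smallest p that 100000 resamples can give). With the stricter IDR limit in both later lists, the GC difference from suckling-only peaks was 0.0811 points. Regions whose adult peak missed that limit counted as suckling-only there, so this value cannot decide whether the contrast holds. The ratio of observed to expected CpG was 0.246, 0.241 and 0.249 and differed from neither class beyond its spread (permutation test, adjusted p = 0.445 and 0.109).

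Summits of the regions lay in soft-masked repeats more often than those of liver-only peaks at all ages. The share was 21% (Wilson 95% interval 20 to 22.1) against 15.8%, higher on 18 of 18 autosomes by a mean of 5.26 points (SD 2.54, permutation test, adjusted p = 8e-05). With only peaks at an IDR of 0.05 or lower in the suckling and adult lists the difference was 5.36 points (permutation test, adjusted p = 0.0503), and with that limit in every list 1.59 points (adjusted p = 0.0725). Suckling-only peaks had 20.9%, not different beyond the spread (0.209 points, SD 2.98, permutation test, adjusted p = 0.769).

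The NFI consensus set the regions apart from both classes. Outside promoters, 486 of 5457 regions (8.91%) held CTTGGCA on either strand, against 6.36% of liver-only peaks at all ages, 4.08% of suckling-only peaks and 5.58% of all suckling peaks. The difference was 2.43 percentage points from the first class (SD 1.63, 15 of 18 autosomes higher, permutation test, adjusted p = 0.00036) and 4.7 points from the second (SD 1.75, 18 of 18 higher, permutation test, adjusted p = 7.7e-05). It passed 0.05 in the same direction in 12 of 12 alternatives that kept the consensus against each class, over which it ranged from 1.83 to 8.49 and from 3.37 to 10.1 points. Some alternatives, such as the IDR limit in every list, drop weak newborn peaks and so largely describe other regions.

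Within the set, NFI matches were most frequent in the best-supported regions. Of the 499 regions outside promoters with an IDR of 0.05 or lower at both ages, 16.6% held a match (Wilson 95% interval 13.6 to 20.2), against 8.13% of the other 4958 (7.4 to 8.92). In 4 bins of equal size from weakest to strongest the share was 8.21%, 6.52%, 7.47% and 13.4%. The matches lay a median of 37 bp from the summit, 27 regions held 2 or more, and 0.971% of the matches overlapped a match of another of the 12 motifs compared. Regions with and without an NFI match had C/EBP matches at nearly the same frequency (13.4% and 13.1%), likewise FOXA (5.14% and 5.09%).

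**Figure D4:**
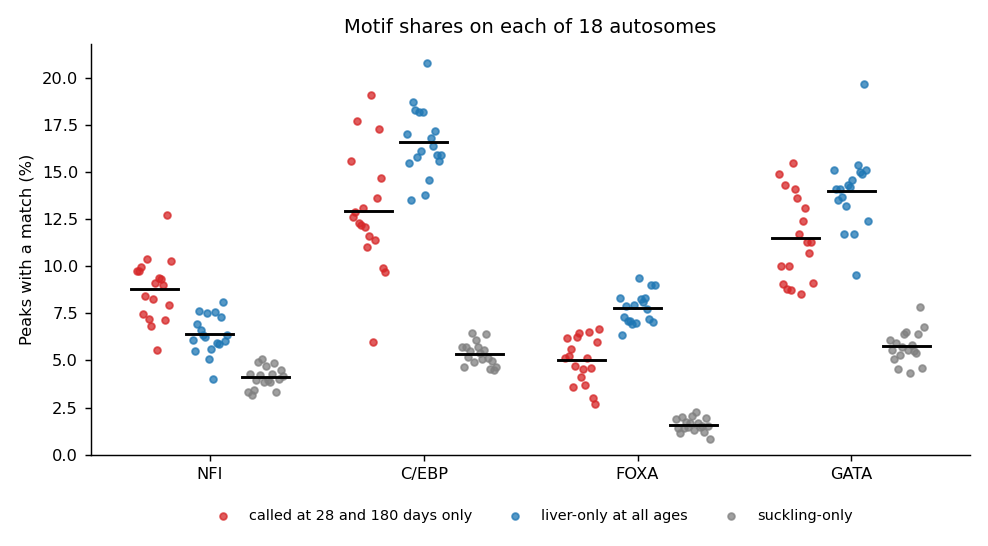
Share of peaks outside promoters with an NFI, C/EBP, FOXA or GATA match (%), as 1 point per autosome and class, with bars for the mean over 18 autosomes. The mean for the 5457 regions outside promoters (red) lies above both other classes for NFI, by 2.43 points over liver-only peaks at all ages (blue), and between them for C/EBP, FOXA and GATA.

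Motifs of the core liver factors lay between the other classes. C/EBP, bound by C/EBPα and relatives, matched 13.1% of the regions, against 16.6% of liver-only peaks at all ages (−3.64 points, SD 2.49, 1 of 18 higher, permutation test, adjusted p = 0.00027) and 5.45% of suckling-only peaks (7.6 points, SD 3.31, 18 of 18 higher, permutation test, adjusted p = 7.7e-05). FOXA matched 5.09%, against 7.68% (−2.77 points, SD 1.55, 0 of 18 higher, permutation test, adjusted p = 0.00027) and 1.6% (3.41 points, SD 1.39, 18 of 18 higher, permutation test, adjusted p = 7.7e-05). GATA matched 11.7%, against 14.1% (−2.5 points, SD 2.51, permutation test, adjusted p = 0.00243) and 5.72% (5.76 points, SD 2.3, permutation test, adjusted p = 7.7e-05), but its reversed letters also differed from suckling-only peaks, by 3.36 points, as did those of FOXA, by 1.76 points. HNF4 matched 1.21%, against 1.91% and 0.232%, and passed in both comparisons (adjusted p = 0.029 and 0.0014, permutation test). Its difference from liver-only peaks at all ages passed 0.05 in only 5 of 12 alternatives that kept the consensus (permutation test, adjusted p up to 0.673). That from suckling-only peaks passed in 11 of 12.

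Over the 27 motifs, 3 were more frequent and 7 less frequent in the regions than in liver-only peaks at all ages, and 15 more and 4 less frequent than in suckling-only peaks, with 11 and 19 at an unadjusted p under 0.05. Beside NFI, the 2 that were more frequent than at all ages were RUNX (5.7% against 4.37%, 1.51 points, SD 2.08, permutation test, adjusted p = 0.024) and NF-κB (2.18% against 1.71%, 0.666 points, SD 0.977, permutation test, adjusted p = 0.0319). They passed in 8 and 5 of 12 alternatives, and NF-κB was 0.393 points (permutation test, adjusted p = 0.276) without summits in repeats. Also less frequent were the glucocorticoid receptor core ACANNNTGT (−1.27 points), DR1 (−0.958) and the cAMP response element TGACGTCA, present in 4 regions (−0.226). Against suckling-only peaks, ONECUT (ATCGAT) differed by 0.888, the PAR bZIP motif TTATGTAA of the clock output factors by 0.861 and HNF1 (GTTAATNAT) by 0.887 points, on 18, 16 and 15 of 18 autosomes.

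**Figure D5:**
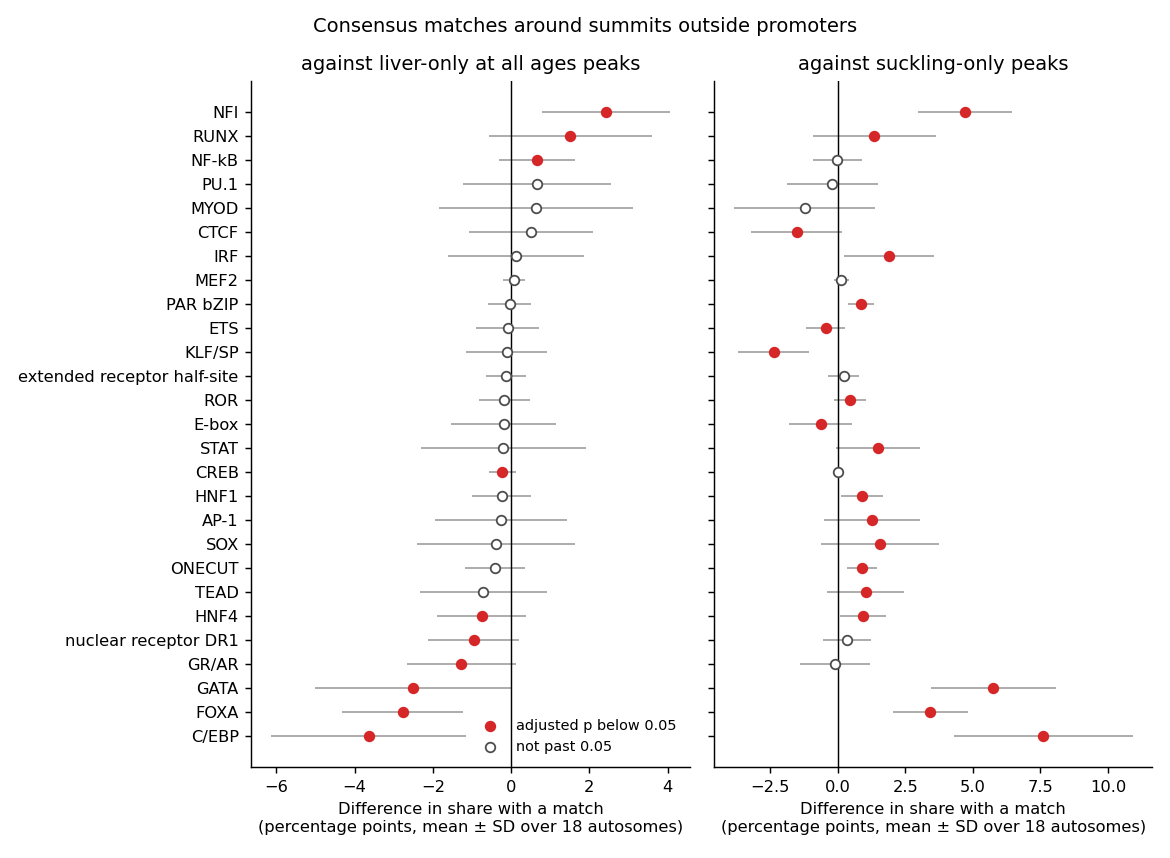
Difference in the share of peaks with a match (horizontal axis, percentage points, mean and SD over 18 autosomes) for each of 27 consensus strings, against liver-only peaks at all ages (left) and suckling-only peaks (right), with filled points for an adjusted p below 0.05. NFI is the highest of the left panel at 2.43 points, and C/EBP is the lowest there at −3.64 and the highest of the right panel at 7.6.

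Several of the differences from suckling-only peaks changed sign when peaks of like GC content were compared. Less frequent in the regions were KLF/SP (GGGCGG) at −2.38, CTCF (CCANNAGGG) at −1.53 and the E-box CACGTG at −0.64 points. Within 5 bins of GC content these became 1.25, 0.0316 and 0.727 points, and IRF (GAAANNGAA) and SOX (ACAATG), at 1.89 and 1.56 points without bins, became −1.08 and −0.644. NFI (4.73), C/EBP (5.14) and FOXA (2.36) kept their direction and their side of the threshold within the bins.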

How the data were processed

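ATAC-seq libraries were made from nuclei of frozen tissue and sequenced as paired ends. Per the labels and the study's methods, the authors aligned reads to Sscrofa11.1 with Bowtie2, filtered them with SAMtools 1.3.1, called peaks with MACS2 and kept 1 merged list of peaks per group with IDR. Each deposited list gives, for each peak found in both libraries, its interval and the −log10 p of MACS2 in each library. It also gives the global IDR on a −log10 scale, from which the IDR values used here were computed. The deposited score, a rescaled IDR, was not used for them. The lists hold no read counts, and the value of a peak depends on depth; the study's own read totals were not used here.

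Lists were intersected by interval (1 bp or more), annotated with RefSeq release 106 of the same build, and scanned for 27 consensus strings in the suckling summit and 100 bp to either side, on both strands; sequences are from RefSeq. A peak was assigned in the order promoter, exon, intron, downstream (300 bp) and intergenic. Shares were compared as the difference on each of 18 autosomes, with 100000 sign flips (smallest p 2e-05) and Benjamini-Hochberg adjustment within positions, sequence measures or motifs. On simulated data with 200 measures for each comparator, the test recovered 97% of changed measures against liver-only peaks at all ages and 95.96% against suckling-only peaks, and called 2% and 1.98% of unchanged ones. The simulated peaks were independent of each other. Changed measures had a fixed difference, larger than that of NFI from liver-only peaks at all ages, on base shares above those of the rarest motifs. These rates therefore do not describe smaller differences, rarer motifs or peaks that depend on each other. Python 3.11.15, numpy 2.4.6, pandas 2.3.3 and scipy 1.17.1 were used.

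Named regions were the 8 strongest, the 6 strongest in promoters, the strongest in each of the genes with most regions, and the strongest in each listed gene. The regions, the gene lists and the motif list were chosen with earlier results of these data known. The lists give values per library only for peaks found in both libraries, and no test between animals was run; the 2 libraries per group are 2 pigs. Alternatives varied the IDR limit, overlap, list length, replicate interval, promoter, genes, window, consensus and bins of GC or strength.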

Additional observations from a re-analysis of the deposited data

Results flagged for a closer look

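Chromosome X was left out of the comparisons. On it, 149 of 3695 suckling liver peaks met the same rule (4.03%, Wilson 95% interval 3.44 to 4.72, counting error only), against 4.23% on chromosomes 1 to 18. They were flagged because they lie in data that no comparison used.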

How the results depend on the processing

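No paired analysis was possible because each group was deposited as 1 merged list and no result compares samples. Of 205 alternatives to the main results, 148 left them on the same side of the threshold or within 1.5 times, 27 lost the threshold, 7 newly passed it, 20 moved and 3 reversed; of those for single motifs and lists, 366 did, 95 lost the threshold, 44 moved and 25 reversed. The cause of each change was not tested. Limits by IDR or by number of peaks also moved peaks between the classes. One alternative, leaving out summits in repeats, was chosen after seeing the data. Read depth limits every call of absence, and the lists do not give it.

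With an IDR of 0.05 or lower in both later liver lists, there were 516 regions in 306 genes. Regions whose adult peak missed this limit then counted as suckling-only. Differences from liver-only peaks at all ages became −2.47 for promoters (now past the threshold), 2.2 for introns, −0.943 for intergenic positions, 5.36 for repeats and −0.0703 for log10 distance, with 2 motifs less frequent. Against suckling-only peaks they became −0.124 for promoters, 0.61 for intergenic positions, 0.0811 for GC and −0.0762 for distance, with 2 motifs more and 0 less frequent, and RUNX (−1.33), IRF (−3.2), SOX (−2.12), the E-box (0.57) and CTCF (1.63) reversed. With that limit in every list, values were 1.75 (introns), 0.0258 (CpG ratio, now past the threshold) and 1.59 (repeats) with 4 motifs less frequent than at all ages, and 0.299 (promoters), −2.34 (intergenic) and −0.00128 (distance) with 9 motifs more frequent than in suckling-only peaks, where STAT (−0.783), RUNX (−2.03), AP-1 (−0.659), IRF (−1.28) and the E-box (0.798) reversed.

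With the same number of strongest peaks in each list there were 3327 regions in 1687 genes. Against all ages, introns were at 2.14, intergenic positions at −2.11 and GC at 0.122, with 1 motif more and 1 less frequent. Against suckling-only peaks, promoters were at 0.261, intergenic positions at −2.12 and distance at −0.024, and STAT (−0.921), RUNX (−2.35), IRF (−1.88), SOX (−0.18) and the E-box (1.38) reversed. At over 1000 bp from lists without the peak, 3679 regions remained, with 3.3 (introns), −2.69 (intergenic), 0.128 (GC) and −0.0206 (distance) against all ages and 1 motif more frequent.

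Against all ages, counting all annotated genes gave 2.47 (introns) and −1.87 (intergenic), bins of strength 1.26, −1.44 and −0.0349 (distance), summits outside repeats −0.0382 (distance), and a 1 kb promoter −0.601 (promoters, now past the threshold). The intronic difference from suckling-only peaks passed the threshold with summits outside repeats (3.06), a 1 kb promoter (2.35) and bins of strength (3.39). Reversed consensus strings, which for NFI hold a CpG that the motif lacks and so are no matched control, left 0 motifs more and 0 less frequent than at all ages, with DR1 (0.249), GR (0.25) and CREB (0.152) of the other sign, and 7 more frequent than in suckling-only peaks, with TEAD at −0.632. Motifs less frequent than in suckling-only peaks numbered 2 with 50% overlap and 2 in the narrower window of 50 bp to either side, where the E-box was at 0.0448. Within GC bins IRF (−1.08), SOX (−0.644), the E-box (0.727), KLF/SP (1.25) and CTCF (0.0316) reversed. Genes within 50 kb of a region numbered 5801.

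Using the interval of 1 replicate in place of the merged one gave 5775 to 6152 regions. The GC difference from all ages was 0.24 to 0.262 (lost without replicate 2), the intronic difference from suckling-only peaks 1.17 to 2.19 (past the threshold without replicate 2), and 2 to 5 motifs were less frequent than in suckling-only peaks (2 without replicate 2).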

Other observations

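On unplaced scaffolds, 71 of 2340 suckling peaks met the same rule (3.03%, Wilson 95% interval 2.41 to 3.81), and on sequence assigned to chromosome Y 1 of 19, in libraries labelled as female. A further 4725 suckling peaks were shared with adult liver and missing from newborn liver but were called in at least 1 other newborn tissue.

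Outside the hepatocyte lists, a few single regions ranked high. RELN, a secreted matrix protein known from hepatic stellate cells, had an intronic region with −log10 p of 18.5 and 22.3 in suckling and 106 and 109 in adult replicates, with NFI, C/EBP and ONECUT matches. PAX5, a B cell factor, had one with 13.4, 12.4, 40.8 and 56.9, and CFTR, the chloride channel of bile duct cells, one with 9.32, 19.6, 63.1 and 130.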
